A study of Mus musculus with 62 samples.

Results

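The 10 neuropeptide genes described here are Sst, Npy, Vip, Cck, Penk, Pdyn, Tac1, Tac2, Crh and Cort, taken by gene symbol from 53975 gene identifiers in the abundance tables of mouse hippocampus and of HT-22 cells. Whole hippocampus was taken from mice carrying the App NL-G-F allele, a knock-in of the humanised amyloid precursor gene with familial Alzheimer mutations (called APP here), and from C57BL/6J mice (called WT). Hippocampi of the left and right side were pooled for each mouse, and long RNA depleted of ribosomal RNA was sequenced. Each age (3, 6 and 12 months) was covered by 3 APP libraries, each from its own mouse, while WT was covered by 2 libraries at 3 months and by 3 at 6 and at 12 months. The submitters place 3 months before symptoms, 6 months at the appearance of plaques and 12 months at the terminal stage. HT-22, a mouse hippocampal cell line, gave 14 libraries at passage 4. These cells received an anti-Hsf1 LNA (a locked nucleic acid oligonucleotide against the heat shock factor gene Hsf1) (150 nM) or a control LNA of scrambled sequence (50 uM in the labels, a dose whose unit could not be checked) for 24 h, together with 30 uM of amyloid beta 42 peptide or of the reverse-sequence peptide. There were 4 libraries for each peptide with scramble LNA and 3 for each peptide with anti-Hsf1 LNA.

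Neuropeptides are made as long precursors, cut by prohormone convertases, packed into dense-core vesicles and released during sustained firing to act on G protein-coupled receptors. In the hippocampus most of these genes mark classes of GABAergic interneurons. Sst (somatostatin) marks cells that inhibit pyramidal cell dendrites, Npy (neuropeptide Y) is shared by many of these and by neurogliaform cells, Vip (vasoactive intestinal peptide) marks cells that mainly inhibit other interneurons, and Cck (cholecystokinin) marks a class of basket cells and is also made by pyramidal neurons. Pdyn (prodynorphin) is made by granule cells of the dentate gyrus and Penk (proenkephalin) by several neuron types, and both, with Tac1 (the substance P precursor), are abundant in the projection neurons of the striatum. Tac2 encodes neurokinin B, Crh encodes corticotropin-releasing hormone, and Cort encodes cortistatin, a relative of somatostatin that binds the same receptors.

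Somatostatin is a textbook target of the factor CREB, which binds the cAMP response element TGACGTCA, and so the promoters were read for this element. Promoters of 300 bases, from 250 before to 50 after the start of transcription, were taken from RefSeq (GRCm38.p6) and were held for 8 of the 10 genes, all except Penk and Crh. TGACGTCA, which reads the same on both strands, occurred in the Sst promoter and in 1.79% of 32851 promoters of that length. The shorter TGACG, searched on both strands and contained in the full element, occurred in the promoters of Sst, Vip, Cck, Tac1 and Cort and in 20.8% of all promoters. TATAAA on either strand occurred in the Vip promoter and in 13.6% of all promoters. The windows below run from 120 bases before to 20 bases after the start, read 5' to 3' on the strand of the gene, and are shown for the 5 genes with TGACGTCA or TGACG. Capitals mark TGACGTCA, TGACG or its complement CGTCA, and TATAAA.
Sst: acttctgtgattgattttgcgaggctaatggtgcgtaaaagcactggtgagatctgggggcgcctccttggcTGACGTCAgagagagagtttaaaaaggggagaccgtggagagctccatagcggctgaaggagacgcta
Vip: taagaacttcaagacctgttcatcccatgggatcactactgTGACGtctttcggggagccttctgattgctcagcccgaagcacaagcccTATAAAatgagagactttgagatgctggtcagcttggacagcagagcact
Cck: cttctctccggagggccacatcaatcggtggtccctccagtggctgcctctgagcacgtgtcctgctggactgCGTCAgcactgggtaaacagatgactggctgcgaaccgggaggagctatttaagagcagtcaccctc
Tac1: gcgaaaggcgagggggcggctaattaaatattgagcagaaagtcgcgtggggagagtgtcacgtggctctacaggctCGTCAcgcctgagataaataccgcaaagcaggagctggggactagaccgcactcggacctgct
Cort: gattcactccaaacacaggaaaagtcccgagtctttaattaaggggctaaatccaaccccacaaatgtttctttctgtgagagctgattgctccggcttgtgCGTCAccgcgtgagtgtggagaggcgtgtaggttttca
The windows lie at chr16:23890825-23890964 (minus strand) for Sst, chr10:5639098-5639237 (plus) for Vip, chr9:121495675-121495814 (minus) for Cck, chr6:7554941-7555080 (plus) for Tac1 and chr4:149126744-149126883 (minus) for Cort. Counted from -1 at the base before the start, TGACGTCA began at -48 in Sst, and the TGACG or CGTCA shown began at -79 in Vip, -47 in Cck, -43 in Tac1 and -18 in Cort. The TATAAA shown for Vip began at -30. These matches are a description of the letters, and no binding was measured.

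All 10 genes were above 0 in all 17 hippocampus libraries and passed the filter of a mean of at least 1. Values are scaled TPM, that is TPM (transcript abundance corrected for gene length and relative to the library total) after division by a median of ratios size factor of each library, and since TPM accounts for gene length, levels can be compared between genes. Cck was the most abundant, with a mean of 166 scaled TPM over the 17 libraries (lowest 91.0, median 161, highest 299.7). Sst followed with a mean of 113 scaled TPM (lowest 56.8, median 117, highest 169). In order, the other means were 23.3 for Npy, 17.5 for Penk, 8.63 for Vip, 7.67 for Tac1, 5.02 for Pdyn, 3.58 for Tac2, 2.39 for Cort and 1.29 scaled TPM for Crh. Cck lay above Sst in 17 of 17 libraries, and so did Sst above Npy, whose ranges did not overlap. The order was loose lower down, since Pdyn lay above Tac2 in 12 of 17 libraries, Tac2 above Cort in 9 and Cort above Crh in 13. The mean read depth over the gene, as the authors gave it, was 55.4 to 233 for Cck and 72.4 to 243 for Sst. It was 0.467 to 4.69 for Tac2, 0.362 to 11.2 for Cort and 0.222 to 6.67 for Crh. Tac1 (0.923 to 8.48) and Vip (0.992 to 10.6) were in a like range. Pdyn was at 2.61 to 15.6, and at 2.61 to 5.15 in the WT libraries. Tac2, Cort, Crh, Tac1, Vip and Pdyn thus rest on few reads.

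In position, Sst (ENSMUSG00000004366) lies at chr16:23889573-23890958, Npy at chr6:49822710-49829507, Vip at chr10:5639218-5647617 and Cck at chr9:121489824-121495694 on GRCm38, as the files give them. Penk lies at chr4:4133531-4138819, Pdyn at chr2:129686565-129699844, Tac1 at chr6:7554879-7565834, Tac2 at chr10:127724478-127731768, Crh at chr3:19693401-19695396 and Cort at chr4:149125034-149126763. Penk overlaps a noncoding gene on the other strand, A830012C17Rik, and whether the counting used strand is not given in the sources used. The other 9 genes overlap no gene of the annotation.

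**Figure D1:**
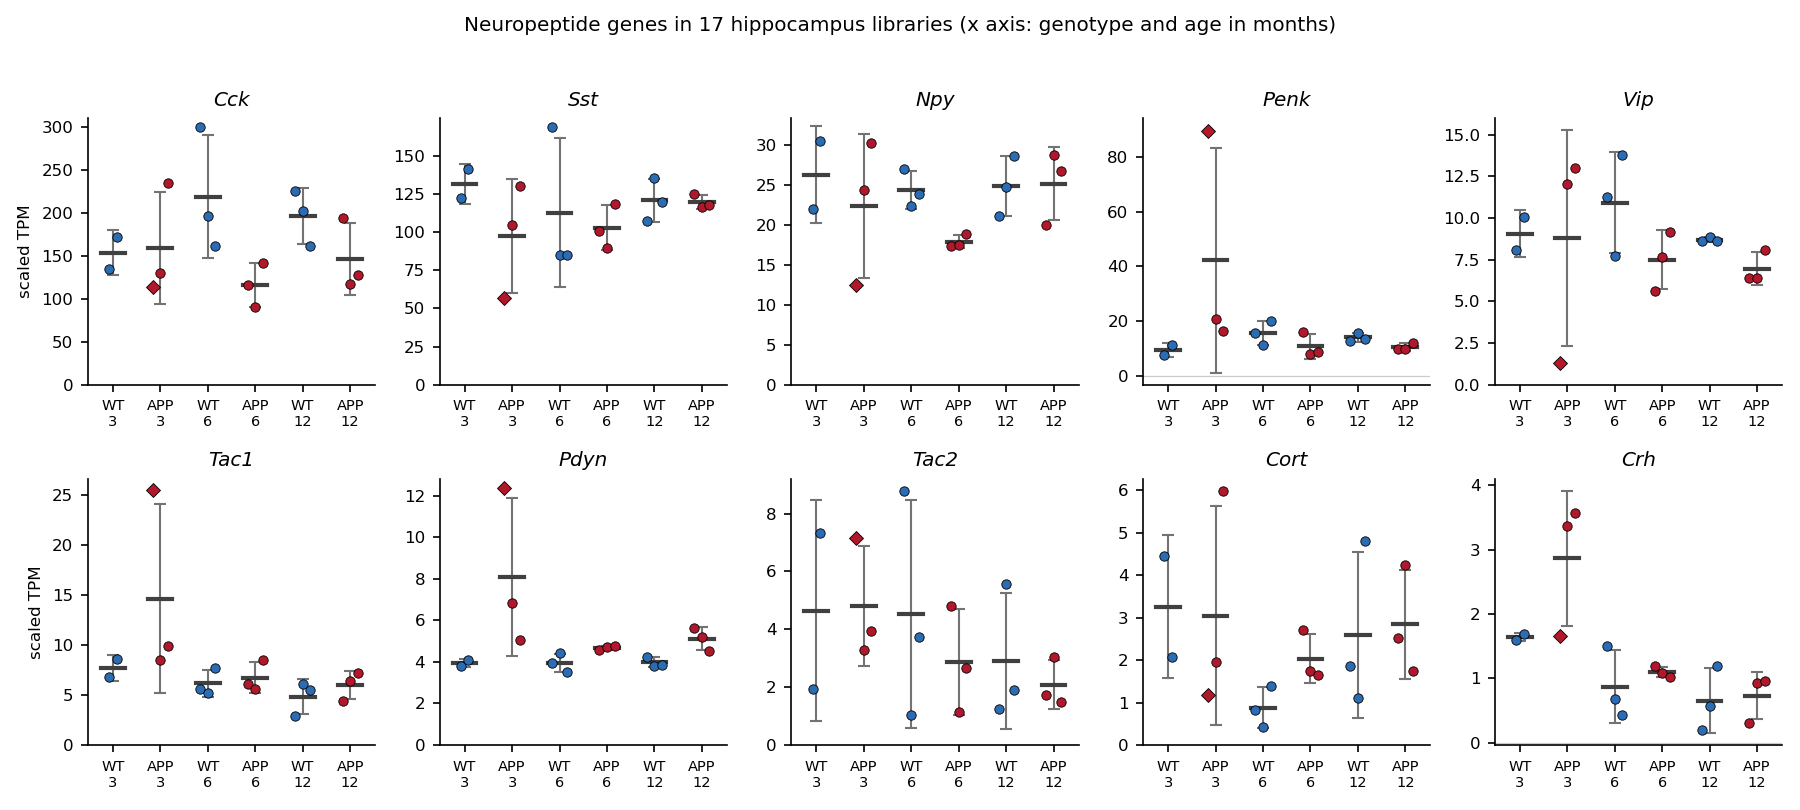
Scaled TPM (y axis, linear) of each gene in each of the 17 hippocampus libraries, by genotype and age in months (x axis). Blue points are WT and red points APP mice, the diamond is APP replicate 1 at 3 months, and bars are the group mean with the SD (n = 2 or 3). The diamond is the highest value of Penk (89.9), Tac1 (25.5) and Pdyn (12.4) and the lowest of Sst (56.8), Npy (12.5) and Vip (1.32).

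Before the comparisons, some features of the libraries bear on them. Protein-coding genes held 26.6% to 51.0% of TPM, so TPM as deposited and scaled TPM can differ in direction. At 6 months this share was 26.6%, 26.9% and 28.5% in WT and 40.4%, 36.2% and 51.0% in APP. The size factors at that age were 0.692 to 0.847 in WT and 1.14 to 1.47 in APP. Genotype and this library composition thus cannot be told apart at 6 months. APP replicate 1 at 3 months stood apart: 10 of 10 listed striatal genes and 6 of 6 listed thalamic genes were highest in it, against 13.1% of 17720 tested genes. The summed striatal list was 241 scaled TPM there and 48.4 to 94.9 in the other 16 libraries, and the summed thalamic list was 534 against 47.0 to 184. APP replicate 2 at 3 months (184) and APP replicate 1 at 6 months (171) were the next highest for the thalamic list, and the other 14 libraries lay at 80.8 or below. The list of 12 hippocampal principal neuron genes was detected in each library. Its sum was lowest in the 3 APP libraries at 3 months (163, 219.9 and 260.8 scaled TPM in replicates 1, 2 and 3), all below the other 14 libraries (273.8 to 379.5). At 3 months 11 of its 12 genes had a log2 change below 0 between APP and WT, 8 with an unadjusted p below 0.05 and 1 called, and the median was -0.65. This shift lies in every comparison with APP mice at 3 months, and its part in them was not tested. Xist was 70.6 scaled TPM or more in every APP library and both WT libraries at 3 months and 0.518 or less in WT at 6 and 12 months, where Ddx3y was at least 18.4, so at 6 and 12 months genotype and these sex-linked transcripts cannot be told apart. The labels give no sex.

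APP and WT were compared at each age to ask whether these genes differ by genotype before or after plaques appear. The test was limma on log2(scaled TPM + 1), fitted over all 17720 genes, with a call at a Benjamini-Hochberg adjusted p below 0.05. Changes on this scale understate those of genes at a few TPM. None of the 10 genes was called at 3 months (background 0.299% of genes called), at 6 months (1.51%), at 12 months (0.451%) or in the average over ages (0.220%). At an unadjusted p below 0.05 there were 2 genes at 3 months (Penk and Pdyn), 1 at 6 months (Cck), 0 at 12 months and 2 in the average (Pdyn and Cck). The share of all genes at this threshold is not given, so these and the other counts at an unadjusted p have no background. The median log2 change of the 10 was 0.08 at 3 months, -0.20 at 6 months and 0.00 at 12 months, beside 0.01, -0.00 and 0 over all genes tested. Whether the genotype difference changed with age was tested by limma's F statistic, which called 0 of 10 genes (background 0.451%), and 1 gene, Penk, had an unadjusted p below 0.05 (limma adjusted p = 0.174). Xist and Ddx3y differ between WT at 3 months and WT at 6 and 12 months, but not between the APP ages. This interaction therefore cannot tell age from these transcripts, and the average over ages carries the limit of 6 and 12 months. With n = 2 or 3, the 95% intervals of the log2 changes were wide, and no call does not show that levels were alike.

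**Figure D2:**
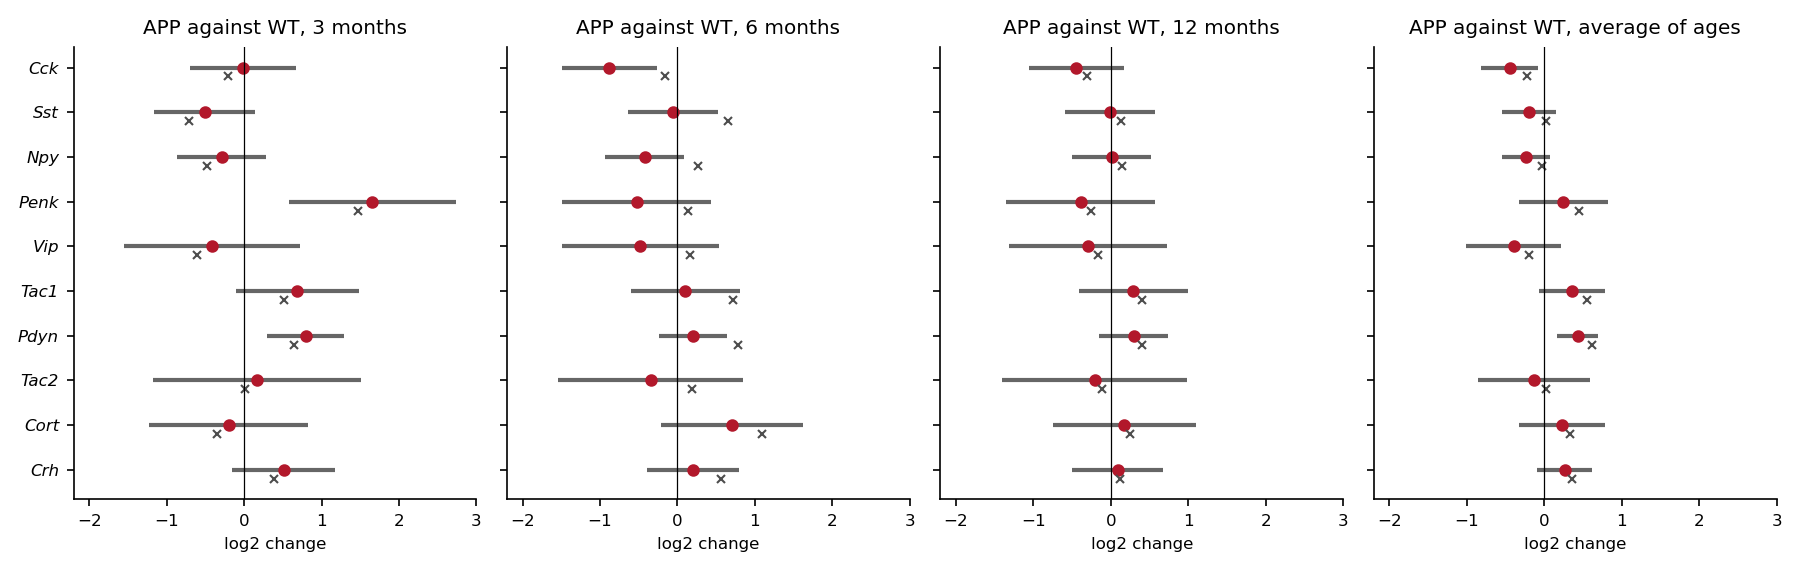
Log2 change of each gene in APP against WT (x axis) at 3, 6 and 12 months and averaged over ages, from limma on log2(scaled TPM + 1). Red points are the estimates, bars their 95% intervals, and crosses the estimates on TPM as deposited. The intervals leave out 0 for Penk and Pdyn at 3 months, for Cck at 6 months and for Pdyn and Cck in the average, and no gene passed the adjusted threshold.

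Sst did not separate the genotypes at any age. Its levels at 3 months were 122 and 141 scaled TPM in WT and 56.8, 105 and 130.3 in APP. At 6 months WT gave 169, 84.7 and 84.6 and APP 101, 89.4 and 119 scaled TPM. At 12 months WT gave 107, 135 and 119.6 and APP 125, 116 and 117 scaled TPM. The groups overlapped at each age, and the log2 change was -0.51 (SE 0.31) at 3 months, -0.06 (SE 0.27) at 6 months and -0.01 (SE 0.27) at 12 months, with limma adjusted p of 0.518, 0.942 and 0.999. On TPM as deposited the change at 6 months was 0.65 (limma adjusted p = 0.0416), where the median of all genes was 0.60 and 58.0% of genes were called, 57.6% higher and 0.404% lower, against 0.395% higher and 1.12% lower on scaled TPM.

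Npy ranged from 12.5 to 30.6 scaled TPM over the 17 libraries. At 6 months the APP libraries gave 17.3, 17.5 and 18.9 scaled TPM, and WT gave 27.0, 22.3 and 23.9. Every APP library was thus below every WT library at that age, as in 10.2% of all genes tested, and the log2 change was -0.42 (SE 0.24, limma adjusted p = 0.404), turning to 0.26 on TPM as deposited. At 12 months the groups overlapped, at 25.2 ± 4.59 in APP and 24.8 ± 3.75 scaled TPM in WT (SD, n = 3 each). Npy and Sst levels were the most evenly paired of the ratios examined: the ratio of Npy to Sst was 0.159 to 0.282 over the 17 libraries, with a coefficient of variation of 17.9%.

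Vip was at 8.07 and 10.1 scaled TPM in WT and 1.32, 12.1 and 13.0 in APP at 3 months. Its lowest value, in APP replicate 1 at 3 months, was 0.145 of the mean of the other 16 libraries (9.09 ± 2.38 scaled TPM, SD, n = 16). At 12 months Vip was 8.62, 8.88 and 8.61 in WT and 6.40, 6.38 and 8.09 scaled TPM in APP. Every APP library lay below every WT library there, as in 6.70% of all genes, and the log2 change was -0.29 (SE 0.48), not a call (limma adjusted p = 0.993).

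Cck was the one gene of the 10 with an unadjusted p below 0.05 at 6 months. WT gave 299.7, 196 and 161 scaled TPM and APP gave 117, 91.0 and 142, so that the groups did not overlap, as 10.2% of all genes tested were lower in every APP library. The log2 change was -0.88 (SE 0.29, 95% interval -1.49 to -0.27), with an unadjusted limma p of 0.00771 and a limma adjusted p of 0.126. On TPM as deposited it was -0.16 (limma adjusted p = 0.598). At 12 months WT gave 226, 203 and 161 and APP 194, 117 and 128 scaled TPM, which overlapped, and the log2 change was -0.45 (SE 0.29, limma adjusted p = 0.861). At 3 months it was -0.01 (SE 0.32). Averaged over ages, the log2 change was -0.45 (SE 0.17, limma adjusted p = 0.303). Without the 3 APP libraries high in thalamic genes it was -0.24, an alternative chosen after seeing the data.

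To set these peptides against the GABAergic signal of each library, each was divided by the sum of Gad1, Gad2 and Slc32a1, the genes for GABA synthesis and vesicular loading, in the same library, a ratio that does not depend on scaling. For Cck, which pyramidal neurons also make, this sum does not cover all the cells that make it. Fewer cells of a type and less RNA per cell cannot be told apart in whole tissue. At 6 months the Cck ratio was 1.47 ± 0.43 in WT and 0.753 ± 0.0984 in APP (SD, n = 3 each), again without overlap. The Npy ratio at 6 months was 0.164 ± 0.00831 in WT and 0.118 ± 0.0249 in APP, also without overlap. The same ratio was lower in every APP library at this age for 8.84% of all genes. For Sst the ratio was 0.752 ± 0.283 in WT and 0.672 ± 0.0963 in APP, and the values overlapped. At 12 months Sst was at 0.746 ± 0.0155 of the GABAergic sum in WT and 0.821 ± 0.0130 in APP (SD, n = 3 each), with each APP library above each WT library, as for 3541 of 17720 genes (20%). Pdyn, also made by granule cells, had the same order at 12 months (0.0212 to 0.0289 in WT, 0.0312 to 0.0378 in APP). Its ratio did not overlap at 3 months (0.0262 to 0.0278 and 0.0287 to 0.0496). At 6 months it overlapped (0.0229 to 0.0327 and 0.0255 to 0.0393). No test was made of these ratios. APP replicate 1 at 3 months had the lowest ratio for Sst (0.228, next lowest 0.524), Npy (0.0499, next 0.0969), Vip (0.00529, next 0.0315) and Cck (0.455, next 0.652). Gad1 and Gad2, in the divisor, were also highest in this library, at 144 and 67.9 scaled TPM.

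**Figure D3:**
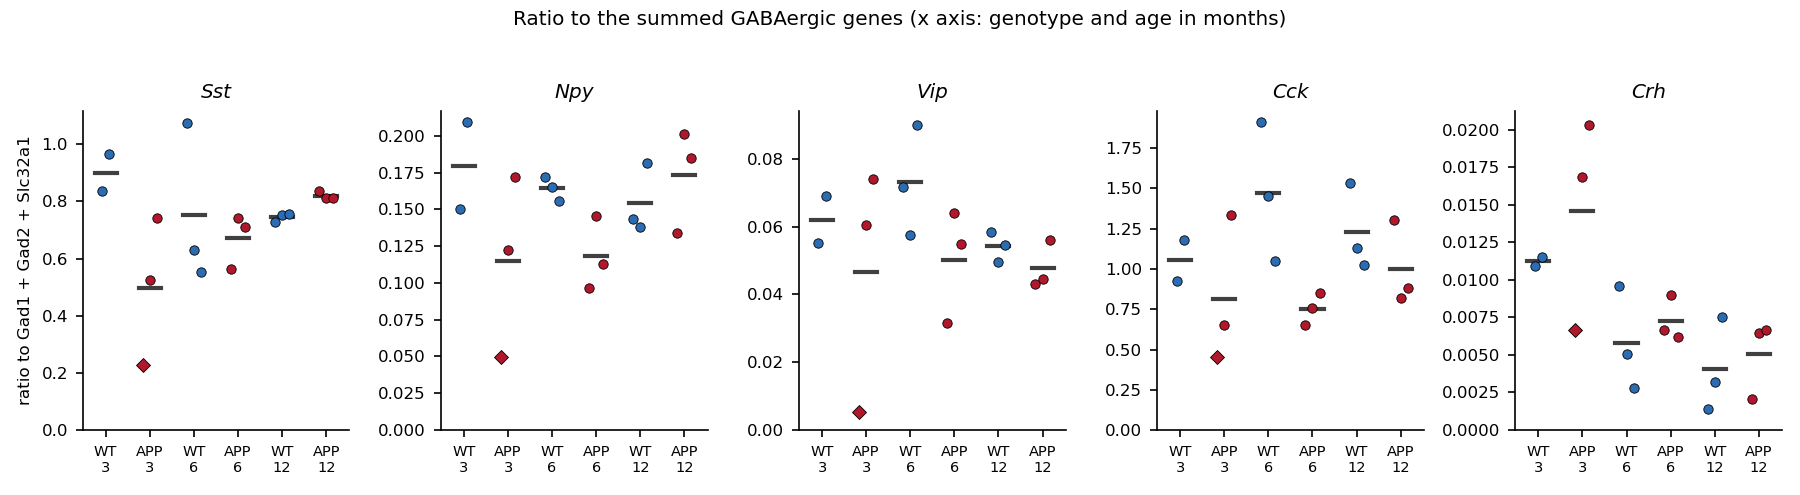
Ratio of Sst, Npy, Vip, Cck and Crh to the summed scaled TPM of Gad1, Gad2 and Slc32a1 in the same library (y axis), by genotype and age in months (x axis). Blue points are WT, red points APP, the diamond is APP replicate 1 at 3 months and bars are group means. The diamond is lowest for Sst, Npy, Vip and Cck, and Cck at 6 months lies at 1.47 on average in WT and 0.753 in APP.

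Penk, the enkephalin precursor, was the most variable of the 10 genes, with an SD of 0.78 on the log2(scaled TPM + 1) scale, where the median gene had 0.25. Without APP replicate 1 at 3 months its SD was 0.42, below those of Tac2 (0.70), Cort (0.63) and Crh (0.54). At 3 months it was at 7.69 and 11.2 scaled TPM in WT and at 89.9, 20.6 and 16.4 in APP. Both Penk and Pdyn had every APP library above every WT library at this age, as did 14.1% of all genes tested, and none of the 10 had every APP library below every WT library (13.0%). The log2 change of Penk was 1.66 (SE 0.51, 95% interval 0.58 to 2.73), with an unadjusted limma p of 0.00516 and a limma adjusted p of 0.170. Without APP replicate 1 it was 0.91 (limma adjusted p = 0.290), without the 3 libraries high in thalamic genes 0.76 (0.598), and without APP replicate 3 it was 2.1 (limma adjusted p = 0.0428). At 12 months the order was the other way: Penk was 12.8, 15.8 and 13.4 in WT and 9.77, 9.57 and 12.0 scaled TPM in APP, without overlap, as 6.70% of all genes were ordered, and the log2 change was -0.39 (SE 0.45, limma adjusted p = 0.969). At 6 months the groups overlapped, at 15.6 ± 4.45 in WT and 10.8 ± 4.54 scaled TPM in APP (SD, n = 3 each).

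Pdyn, the dynorphin precursor, was the only one of the 10 genes with every APP library above every WT library at all 3 ages, an order that 41 of all 17720 genes (0.231%) had. This order was on scaled TPM, and the ratio of Pdyn to the GABAergic sum overlapped between the genotypes at 6 months. At 3 months WT gave 3.82 and 4.07 scaled TPM and APP gave 12.4, 6.85 and 5.05. At 6 months WT gave 3.93, 4.41 and 3.52 and APP 4.56, 4.72 and 4.75, and 11.0% of all genes were ordered that way. At 12 months WT gave 4.25, 3.82 and 3.85 and APP 5.63, 5.20 and 4.52 scaled TPM, as 8.78% of all genes were ordered. The log2 change was 0.80 (SE 0.23) at 3 months, 0.20 (SE 0.21) at 6 months and 0.29 (SE 0.21) at 12 months, with limma adjusted p of 0.154, 0.685 and 0.892. Averaged over ages it was 0.43 (SE 0.13, 95% interval 0.16 to 0.70), with an unadjusted limma p of 0.00364 and a limma adjusted p of 0.169. The average became 0.61 on TPM as deposited (limma adjusted p = 0.0244, where 7.58% of all genes were called) and 0.52 without APP replicate 3 at 3 months (0.0437). It was 0.32 without APP replicate 1 (0.123) and 0.27 without the 3 libraries high in thalamic genes (0.358). At 6 months the change on TPM as deposited was 0.78 (limma adjusted p = 0.0111), where the median of all genes was 0.60 and 58.0% were called. At 3 months alone the log2 change was 1.05 without APP replicate 3 (limma adjusted p = 0.0201) and 0.48 without replicate 1 (0.3).

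Tac1 and Tac2, both tachykinin precursors, gave no genotype call. Tac1 was at 6.81 and 8.63 scaled TPM in WT and 25.5, 8.52 and 9.85 in APP at 3 months, which overlapped, and its log2 change reached 0.69 (SE 0.37), not a call (limma adjusted p = 0.455). Its lowest value was 2.87 scaled TPM in a WT mouse at 12 months. Tac2 spread widely within groups, at 8.80, 1.03 and 3.73 scaled TPM in WT at 6 months and 4.80, 1.16 and 2.65 in APP, with genotype log2 changes between -0.35 and 0.17 over the ages.

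Penk, Tac1 and Pdyn were highest, and Sst, Npy and Vip lowest, in the same library, APP replicate 1 at 3 months. That is 3 of 10 genes each way, where 13.1% of all genes tested were highest and 13.8% lowest in this library. Relative to the mean of the other 16 libraries its Penk was 6.91 times as high (13.0 ± 4.07 scaled TPM in the others, SD, n = 16), its Tac1 3.89 times and its Pdyn 2.71 times, while its Sst was 0.488 and its Npy 0.519 of that mean. In this library the striatal receptors Drd1, Drd2 and Adora2a were at 16.4, 11.3 and 11.1 scaled TPM, and Drd2 was at 2.64 and 0.766 in the other APP replicates at 3 months. Prkcd, a thalamic marker, was at 191, 46.4 and 11.7 scaled TPM in APP replicates 1, 2 and 3, and Neurod6, a marker of pyramidal neurons, at 8.05, 38.5 and 74.2. Gad1 (144 scaled TPM) and Gad2 (67.9) were higher there than in any other hippocampus library. The summed list of 4 GABAergic genes was 342 scaled TPM there, against 200.6 to 301 in the other 16 libraries. The part of these markers in the 3-month differences of the peptide genes was not tested beyond the values without the library. Without it the SD on the log2 scale fell from 0.78 to 0.42 for Penk, from 0.57 to 0.37 for Tac1, from 0.60 to 0.33 for Vip and from 0.37 to 0.20 for Pdyn, and it was 0.73 and 0.70 for Tac2.

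**Figure D4:**
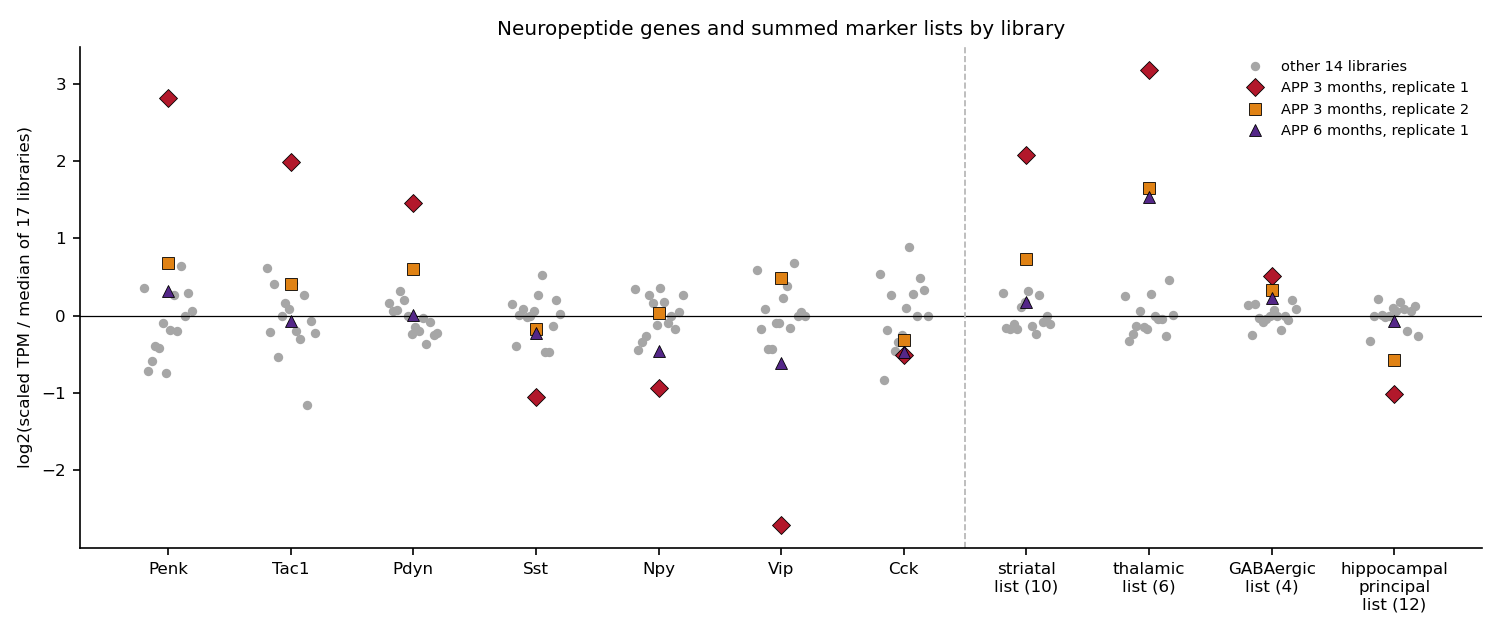
Log2 ratio of each library to the median of the 17 libraries (y axis) for 7 peptide genes and for the summed scaled TPM of 4 marker lists (number of genes in brackets). Coloured symbols are the 3 libraries high in thalamic genes and grey points the other 14. APP replicate 1 at 3 months is highest for Penk, Tac1 and Pdyn (89.9, 25.5 and 12.4 scaled TPM) and for the striatal and thalamic lists (241 and 534), and lowest for Sst, Npy and Vip.

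Several correlations between the genes differed with and without that library. They are descriptions over the same libraries, which share depth and dissection. Penk and Pdyn had a Pearson r of 0.726 over 17 libraries and 0.017 over 16 without it, and Penk and Tac1 0.735 and 0.203. Sst and Vip had 0.631 and 0.139. Sst and Npy had 0.723 and 0.506, and Tac1 and Crh 0.554 and 0.706, so these pairs moved together with and without that library. Among 10953 genes with a mean of at least 5 scaled TPM, Lhfpl3 (r = 0.952), Pde1b (0.942) and Spock3 (0.940) were most like Penk over the 17 libraries, with r of 0.840, 0.769 and 0.783 without the library. Reep2 (0.867), Zcchc18 (0.854) and Glud1 (0.831) were most like Tac2, and E2f4 (0.775), Smarcd1 (0.766) and Cpsf7 (0.760) most like Cort.

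Crh gave the one call among the 10 genes, and it was a difference of age within APP mice. With a mean of 1.29 scaled TPM, Crh passed the filter of 1 only through its APP libraries at 3 months (mean 2.87). These are the high group of this contrast, so the call is not independent of the filter. Group means of Crh were 1.64 in WT at 3 months and 0.655 to 1.10 at 6 and 12 months. Crh was at 1.66, 3.36 and 3.57 scaled TPM at 3 months, 1.19, 1.08 and 1.03 at 6 months and 0.311, 0.925 and 0.964 at 12 months in APP. The 3-month libraries lay above all the later ones. Between 3 and 12 months Crh fell by 1.14 on the log2(scaled TPM + 1) scale (SE 0.28, 95% interval -1.73 to -0.55, limma adjusted p = 0.0380), and 1 of 10 genes was thus called, where 3.34% of all genes were (1.50% lower). The change from 3 to 6 months was -0.84 (SE 0.28, limma adjusted p = 0.118). WT mice had 1.60 and 1.68 scaled TPM at 3 months, 1.51, 0.679 and 0.435 at 6 months and 0.202, 0.570 and 1.19 at 12 months. The WT 3-month libraries also lay above those at 12 months, but this was not tested, since Xist and Ddx3y differ between these WT groups. Crh did not separate APP from WT at any age (log2 change 0.51, 0.20 and 0.09 at 3, 6 and 12 months, limma adjusted p = 0.524 or more), and its interaction p was 0.594 (limma adjusted p = 0.820). The interaction draws on the same WT groups and has the same limit.

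The call of Crh rested on a narrow margin. The limma adjusted p was 0.0460 on TPM as deposited, but 0.0912 with a pseudocount of 0.1, 0.0636 with no filter, 0.126 with only the groups compared, 0.0501 with the replicate block and 0.150 without the 3 libraries high in thalamic genes. The call was lost in 9 of 17 fits that left out 1 library, with adjusted p of 0.106 and 0.0934 without APP replicates 2 and 3 at 3 months, 0.156, 0.0789 and 0.0851 without APP replicates 1, 2 and 3 at 12 months, and 0.0507 to 0.0517 without APP replicate 3 at 6 months, WT replicates 1 and 2 at 3 months or WT replicate 2 at 12 months. Leaving out APP replicate 1 at 3 months kept it (log2 change -1.39, limma adjusted p = 0.0212). The direction was the same in each of these fits. The 2 APP libraries with the most Crh, replicates 2 and 3 at 3 months, also had the highest sums of 8 activity-regulated genes (Fos, Arc and others), 356.5 and 357.8 scaled TPM, where the other 15 libraries had 88.7 to 207. The sum of 8 genes of cerebral cortex layers was highest in the same libraries, at 135.4 and 144.1 scaled TPM, beside 52.6 to 111.5 in the other 15. The part of these lists in the Crh difference was not tested.

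Other peptide genes also lay lower in older APP mice without passing the adjusted test. Every APP library at 12 months was below every APP library at 3 months for Penk, Tac1, Tac2 and Crh, as for 11.4% of all genes. The log2 change from 3 to 12 months was -1.51 (SE 0.45, limma adjusted p = 0.0885) for Penk, -1.02 (SE 0.33, 0.116) for Tac1 and -0.50 (SE 0.21, 0.240) for Pdyn. Without APP replicate 1 at 3 months these were -0.77, -0.56 and -0.18, and without replicate 3 they were -1.96 (limma adjusted p = 0.0264), -1.20 (0.0869) and -0.75 (0.0388). Pdyn was at 0.01 without the 3 libraries high in thalamic genes. From 3 to 6 months 0 of 10 genes were called (background 2.19%), with 4 at an unadjusted p below 0.05, and from 6 to 12 months 0 of 10 in APP (0.564%) and in WT (0%), with 0 at an unadjusted p below 0.05 in both. Sst differed little with age in APP, at 97.2 ± 37.3, 103 ± 14.6 and 119 ± 4.43 scaled TPM at 3, 6 and 12 months (SD, n = 3 each), and from 3 to 12 months the log2 change was 0.37 (SE 0.27; limma adjusted p = 0.563).

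Cort had low and scattered levels. It was at 4.44 and 2.07 scaled TPM in WT and 1.181, 1.96 and 5.99 in APP at 3 months. At 6 months WT gave 0.828, 0.424 and 1.39 and APP 2.70, 1.745 and 1.65, and every APP library lay above every WT library, as for 11.0% of all genes. The log2 change was 0.70 (SE 0.43, limma adjusted p = 0.444), and 1.09 on TPM as deposited (limma adjusted p = 0.0427), where 58.0% of all genes were called. Cort was not called on scaled TPM. At 12 months the groups overlapped, at 2.60 ± 1.95 in WT and 2.84 ± 1.28 scaled TPM in APP (SD, n = 3 each).

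The wider peptide system was read from lists of receptors, processing enzymes and other precursors. Of 21 receptors of these peptides 14 were tested, and none was called between APP and WT at 3, 6 or 12 months (3, 1 and 0 at an unadjusted p below 0.05). Sstr4, a somatostatin receptor, and Npy2r, a receptor of neuropeptide Y, were the most abundant, with means of 17 and 15.1 scaled TPM. Npy2r was 7.76 ± 2.28 scaled TPM in APP at 3 months and 19.3 ± 1.95 at 12 months (SD, n = 3 each), a rise of 1.24 on the log2 scale (SE 0.24, limma adjusted p = 0.0130), and its values at 3 months in WT were 12.5 ± 0.482 (SD, n = 2). It was also called between 3 and 6 months (1.02, limma adjusted p = 0.0436). Of 15 genes for prohormone processing and dense-core vesicles 15 were tested and 1 was called by genotype, at 6 months. Of all genes 1.51% were called there (1.12% lower). The median log2 change of the 15 at that age was 0.02, with 6 below 0. The called gene was Scg5, which encodes a chaperone of the convertase Pcsk2. Scg5 fell by 0.63 at 6 months (SE 0.14, limma adjusted p = 0.0349), from 114 ± 12.8 in WT to 74.1 ± 13.3 scaled TPM in APP (SD, n = 3 each). On TPM as deposited its change was 0.08 (limma adjusted p = 0.673). Chga, a granin of dense-core vesicles, fell by 0.64 from 3 to 6 months in APP (limma adjusted p = 0.0341), and -0.32 on TPM as deposited was not called (0.249). From 3 to 12 months in APP, Pcsk2 fell by 0.49 (limma adjusted p = 0.0410) and the granin Scg2 by 0.55 (0.0355), calls that TPM as deposited did not give (0.255 and 0.144). The most abundant processing genes, Cpe (a carboxypeptidase, 865 scaled TPM on average) and Pcsk1n (an inhibitor of Pcsk1, 113.5), had genotype log2 changes between -0.23 and 0.08. Of 19 other neuropeptide precursors and binding proteins 10 were tested and none was called by genotype; the most abundant were Crhbp, which binds Crh, and Grp, gastrin-releasing peptide, at means of 9.61 and 9.54 scaled TPM. Adcyap1, the precursor of PACAP, fell by 1.08 between 3 and 12 months in APP (SE 0.25, limma adjusted p = 0.0281), from 6.85 ± 2.38 to 2.61 ± 0.506 scaled TPM (SD, n = 3 each). These age differences of Npy2r, Chga, Pcsk2, Scg2 and Adcyap1 all rest on the APP libraries at 3 months, which had the lowest principal neuron sums and, in replicates 2 and 3, the highest activity and cortex sums. The part of these lists in them was not tested.

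Among the markers of the interneuron classes, 2 of 15 tested were called at 3 months, where 0.299% of all genes were. Pvalb, of parvalbumin cells, rose by 1.15 (SE 0.21, limma adjusted p = 0.0426), and Kit fell by 1.20 (SE 0.22, limma adjusted p = 0.0438). The median log2 change of the 15 was -0.33, beside 0.01 over all genes, and 10 of them were below 0. At this age striatal and thalamic genes were also highest in APP replicate 1. Their part in these calls was not tested. None of the 4 pan-GABAergic genes was called by limma in a genotype contrast at any age, and 3, 0 and 0 had an unadjusted p below 0.05 at 3, 6 and 12 months. In the same contrasts, 7 of 8 genes of plaque-associated glia were called higher in APP at 12 months, with a median log2 change of 2.07, while the median of the 10 peptide genes was 0.00.

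In HT-22 cells 9 of the 10 genes were listed at 0 in all 14 libraries, and Cort alone was above 0. Cort was at 0.278 to 2.81 TPM as deposited (median 1.15), with a mean read depth of 0.228 to 1.41 over the gene. It lies 357 bases from Cenps, a kinetochore gene on the same strand, which was at 7.72 to 16.8 TPM in these cells and 0.324 to 1.62 scaled TPM in hippocampus; whether reads of Cenps reach Cort was not tested. Gad1 and Slc32a1 were listed at 0 in all 14 libraries, as were the neuronal genes Snap25 and Rbfox3, and the list of 8 neuronal genes summed to 1.38 to 7.13 scaled TPM, against 1655 to 2175 in hippocampus. Of these 8 genes 5 were at 0 in every HT-22 library, and hippocampus and HT-22 were scaled separately. The list of 12 hippocampal principal neuron genes summed to 29.1 to 66.5 scaled TPM in HT-22, with 8 of the 12 at 0 in every library. The identity of the line was not tested. None of the 21 receptors had a mean of 1 TPM or more, while 5 of the 15 processing genes did, among them Cpe (164 TPM) and Pam (127 TPM), an enzyme of peptide amidation.

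Cort in HT-22 cells was 1.53 ± 1.05 scaled TPM with reverse peptide and 1.21 ± 0.485 with amyloid beta 42 under scramble LNA (SD, n = 4 each). Under anti-Hsf1 LNA it was 1.38 ± 0.220 with reverse peptide and 0.813 ± 0.547 with amyloid beta 42 (SD, n = 3 each). The log2 change with amyloid beta 42 was -0.12 (SE 0.31, 95% interval -0.79 to 0.55) under scramble and -0.43 (SE 0.36, -1.20 to 0.34) under anti-Hsf1, and with anti-Hsf1 it was 0.01 (SE 0.34) with reverse peptide and -0.30 (SE 0.34) with amyloid beta 42. The labels do not say whether these libraries came from separate cultures, so the p-values measure the spread between libraries. None was called (limma adjusted p = 0.741 or more, unadjusted p = 0.253 or more), where 0, 0, 0 and 4 (0.0232%) of 17205 genes were.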

How the data were processed

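Long RNA of 17 hippocampus and 14 HT-22 libraries was analysed, and short RNA was not used here. Per the file headers, the authors gave each gene of each library a TPM, an FPKM and a coverage, the mean read depth over the gene. The submitters' processing notes name cutadapt 1.18, HISAT2 2.1.0, BWA 0.7.17, bedtools 2.26.0 and StringTie 1.3.4d and the builds mm10 and GRCm38. Read counts per gene were not used here, and coverage per FPKM, which follows depth, was 1.42 to 3.04 in hippocampus and 0.724 to 2.60 in HT-22 libraries.

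TPM was summed per gene identifier and divided by median of ratios size factors (0.692 to 1.47 in hippocampus) within each system. Genes with a mean of at least 1 entered limma 3.58.1 (R 4.3.3, trend, robust) on log2(scaled TPM + 1), with 6 mouse groups or 4 HT-22 groups and Benjamini-Hochberg adjustment over all genes. The fit was tested on simulated data. Alternatives were TPM as deposited, a pseudocount of 0.1, no filter or a mean of at least 5, a replicate block, only the groups compared, and leaving out each library. The members and lists were chosen with earlier results of these data known. Named are the 10 members, of the other lists the genes called by genotype and the most abundant, the genes most like the 3 most variable members, and companion markers. Genes called with age in the peptide lists and some list markers were named after their values were seen. Python 3.11.15, pandas 2.3.3 and numpy 2.4.6 were used.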

Additional observations from a re-analysis of the deposited data

How the results depend on the processing

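Of the counts of the 10 genes called, 269 of the values under an alternative equalled the main count and 21 did not. At 3 months 0 to 2 genes were called when 1 library was left out (Penk and Pdyn without APP replicate 3 at 3 months), in the average 0 to 1 (Pdyn, without the same library) and between APP at 6 and 3 months 0 to 2 (Penk and Pdyn, again without it). TPM as deposited called 3 of the 10 genes at 6 months (Sst, Pdyn and Cort), 1 in the average (Pdyn) and 1 in the interaction (Sst). Of all genes it called 58.0%, 7.58% and 33.1% in these comparisons. Between APP at 12 and 3 months the 1 call of Crh became 0 with a pseudocount of 0.1, no filter, a mean of at least 5 (Crh not tested), only the groups compared, or without the 3 libraries high in thalamic genes, and 0 to 2 when 1 library was left out. At 12 months no gene was called in 24 of 24 settings.

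The log2 change of Sst at 6 months reversed from -0.06 to 0.65 on TPM as deposited, and ranged from -0.23 to 0.27 over fits leaving out 1 library, among them 0.03 without APP replicate 2 and 0.27 without WT replicate 1 at 6 months. That of Pdyn between APP at 12 and 3 months went from -0.50 to 0.01 without the 3 libraries high in thalamic genes. The cause was not tested.

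Same-numbered libraries mostly did not pair. Over 40 mouse pairs r was -0.149 to 0.227 (median -0.006, 3 above 0.1), and over 19 HT-22 pairs -0.217 to 0.576 (median 0.013, 3 above 0.1). With the replicate block 0 of 10 genes were called between APP at 12 and 3 months (Crh, limma adjusted p = 0.0501), and the counts over all genes were 14 against 39 in the average and 134 against 80 in the interaction.

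Over all genes, TPM as deposited called 10339 against 268 at 6 months, 1353 against 39 in the average, 5910 against 80 in the interaction, 1270 against 388, 286 against 592 and 26 against 100 between APP ages (6 against 3, 12 against 3, 12 against 6), and 4197 against 0 and 8766 against 4 with amyloid beta 42 under anti-Hsf1 and with anti-Hsf1 under amyloid beta 42. Only the groups compared called 4 against 53 at 3 months, 40 against 268 at 6 months, 2 against 388, 152 against 592 and 1 against 100 between APP ages. No filter called 34, 101 and 25 at 3 and 6 months and in the average, 46 in the interaction and 169 between APP at 6 and 3 months. A mean of at least 5 called 50 at 12 months and 159 in the interaction, and a pseudocount of 0.1 called 46 between APP at 12 and 6 months. Without the 3 libraries high in thalamic genes 8, 435 and 17 were called at 3 and 6 months and in the average, and 49, 104 and 55 between APP ages. The low read depth of Crh, Cort, Tac2, Tac1, Vip and Pdyn limits their precision.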
